A study of Mus musculus with 33 samples.

Results

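Csf1r, Tyrobp, Ctss, Laptm5, C1qa and B2m are 6 genes of microglia, complement and antigen presentation. They were chosen by name, with earlier results of these data known. Each has 1 probe set with a single gene symbol on the array, and they stand among the 14857 genes measured. The tissue came from the MNTB, the medial nucleus of the trapezoid body in the auditory brainstem, whose glycinergic principal neurons receive the calyx of Held, a giant glutamatergic terminal. It was dissected from untreated wild-type mice at 7 ages, counted in days after birth and written P0 to P14. The ages P4 and P14 had 4 mice each and the other ages, namely P0, P1, P2, P3 and P6, had 5 each, so that 33 mice gave 33 arrays. The title and description of the labels call the animals FVB, while the strain tag reads FVN. The dissection enriches for the nucleus and isolates no cell type, so a level is that of a mixed tissue. In such tissue fewer cells of a type and less RNA per cell cannot be told apart.

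Microglia are the resident macrophages of the brain and depend on signalling through the CSF1 receptor for their survival. They take up dying cells and synaptic material and degrade them in lysosomes, and in several parts of the developing brain complement C1q tags material for this uptake. Beta-2-microglobulin is the light chain of MHC class I molecules, is made by nearly all nucleated cells, and is not a marker of microglia alone.

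All values are log2 expression values as deposited, and changes are later minus earlier age with the standard error (SE) of the limma fit. A gene was called changed where the adjusted p (Benjamini-Hochberg over 16686 probe sets) was under 0.05. The median probe set of an array lay between 4.83 and 5.12. Levels are not compared between genes, since probe sets differ in brightness. Pearson correlations between arrays of 1 age were 0.967 to 0.990.

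All 6 genes had their lowest mean at P0 and their highest at P14, and the F test over the 7 ages called all 6, as it did 28.5% of all probe sets. The change was read in 2 parts, cut at P6, and whether it came in steps was not tested. Tyrobp, Ctss, Csf1r, Laptm5 and B2m were higher at P6 than at P0, and Csf1r, Tyrobp, Ctss, Laptm5 and C1qa were higher at P14 than at P6. From P0 to P6, the mice of consecutive ages overlapped in every gene but Ctss. There the lowest P3 mouse (7.395) was just above the highest P2 mouse (7.386). P14 mice lay wholly above P6 mice in 5 of 6 genes. B2m was the exception.

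Promoter sequence was matched for 3 of the 6 genes, Ctss, Laptm5 and B2m, in the RefSeq promoter table of GRCm38.p6. The 200 bases before each start site are shown because they hold letters that resemble sites of factors known to act on myeloid and antigen presentation genes. The searched letters were GGAAGT, a core of PU.1 and other ETS factors; GAAA followed after any 2 bases by GAAA, the core of the interferon response element; and GGGAA followed after any 2 bases by TCC, a form of the NF-kB site. They were chosen with the sequences in view, were searched on both strands in the 250 bases before the start, and are in capitals. The matches shown do not overlap one another.
Ctss, chr3:95526586-95526785, plus strand: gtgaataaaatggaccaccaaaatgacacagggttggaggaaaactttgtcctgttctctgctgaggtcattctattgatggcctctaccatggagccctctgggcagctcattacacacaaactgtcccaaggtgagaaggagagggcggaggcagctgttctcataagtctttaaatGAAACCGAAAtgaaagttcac
Laptm5, chr4:130913116-130913315, plus strand: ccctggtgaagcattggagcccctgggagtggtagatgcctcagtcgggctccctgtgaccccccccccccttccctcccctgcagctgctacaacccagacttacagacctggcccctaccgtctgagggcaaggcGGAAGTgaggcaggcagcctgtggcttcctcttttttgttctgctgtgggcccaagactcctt
B2m, chr2:122147487-122147686, plus strand: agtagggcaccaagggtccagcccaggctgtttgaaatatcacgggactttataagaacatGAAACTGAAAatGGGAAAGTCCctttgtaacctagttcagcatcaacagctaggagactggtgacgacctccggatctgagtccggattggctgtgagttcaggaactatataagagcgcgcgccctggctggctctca

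In Ctss the interferon element letters began 21 bases before the start. In Laptm5 the ETS letters began 63 bases before it. B2m held the interferon element letters from base 139 and the NF-kB letters from base 127 before its start. Among 32851 promoters of the same length, 19.7% held the ETS letters, 2.98% the interferon element letters and 1.09% the NF-kB letters. A match describes the letters and is not a measured binding site.

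Csf1r, the receptor for CSF1 and IL-34 on microglia and other macrophages, was near or under the array median through P6 and clearly above it at P14. Its log2 values were 4.31, 4.24, 4.32, 4.34 and 4.07 at P0, 5.44, 4.78, 4.93, 4.44 and 4.77 at P3, 5.26, 4.94, 4.67, 4.53 and 4.98 at P6, and 6.46, 6.19, 6.38 and 6.15 at P14. Means were 4.35 ± 0.08 at P1, 4.38 ± 0.17 at P2 (SD, n = 5 each) and 4.71 ± 0.28 at P4 (SD, n = 4). All P6 mice were above all P0 mice, and all P14 mice were above all others. The level was higher by 0.62 at P6 than at P0 (SE 0.142, adjusted p = 0.00234, limma) and by 1.42 at P14 than at P6 (SE 0.15, adjusted p = 1.37e-08, limma). No fold is given because the gene was under the array median in 4 of 5 mice at P6 and in all 5 at P0, and changes of dim probe sets are compressed.

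Tyrobp encodes the DAP12 adaptor, which carries the signal of TREM2 and other receptors that have no signalling tail of their own. Its values were 5.38, 5.36, 6.87, 6.40 and 5.34 at P0, 8.33, 7.31, 7.69, 8.31 and 7.69 at P3, 7.63, 7.24, 7.67, 7.49 and 7.67 at P6, and 8.81, 8.64, 9.09 and 9.06 at P14. At the ages between, the means were 6.74 ± 0.45 at P1, 7.08 ± 0.48 at P2 (SD, n = 5 each) and 7.44 ± 0.50 at P4 (SD, n = 4). The P0 mice fell into 3 low and 2 higher values, yet none reached the lowest P3 or P6 mouse. Tyrobp was 3.18-fold higher at P6 than at P0 (log2 change 1.67, SE 0.279, adjusted p = 5.48e-05, limma). It was 2.57-fold higher at P14 than at P6 (log2 change 1.36, SE 0.296, adjusted p = 0.0009, limma), again with no overlap between mice.

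Ctss encodes cathepsin S, a lysosomal cysteine protease of macrophages that also trims the invariant chain of MHC class II. Its values were 5.48, 5.83, 7.17, 6.00 and 5.85 at P0, 7.98, 7.40, 7.43, 7.89 and 7.74 at P3, 8.24, 7.72, 8.14, 8.05 and 7.92 at P6, and 8.98, 9.07, 9.34 and 9.42 at P14. The P0 mouse of litter 3, at 7.17, was the highest of its age for Tyrobp, Ctss, Laptm5 and B2m and had the highest array median, 5.12. Intermediate means were 6.79 ± 0.30 at P1, 7.15 ± 0.30 at P2 (SD, n = 5 each) and 7.40 ± 0.59 at P4 (SD, n = 4). Ctss was 3.86-fold higher at P6 than at P0 (log2 change 1.95, SE 0.238, adjusted p = 3.57e-07, limma) and 2.27-fold higher at P14 than at P6 (log2 change 1.18, SE 0.252, adjusted p = 0.000707, limma). The mice of P0, P6 and P14 formed 3 sets with no overlap.

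Laptm5 encodes a lysosomal transmembrane protein of blood-derived and microglial cells. Its values were 4.86, 5.42, 5.92, 5.08 and 4.62 at P0, 5.61, 5.31, 5.72, 5.47 and 5.88 at P3, 6.46, 6.62, 6.16, 6.20 and 6.19 at P6, and 7.50, 7.06, 7.66 and 7.06 at P14. It averaged 5.34 ± 0.27 at P1, 5.68 ± 0.68 at P2 (SD, n = 5 each) and 5.95 ± 0.46 at P4 (SD, n = 4), where the spread at P2 holds a single mouse at 6.88. P3 mice overlapped those of P0, while P6 and P14 mice stood apart from P0 and from each other. The level was 2.21-fold higher at P6 than at P0 (log2 change 1.15, SE 0.248, adjusted p = 0.00136, limma) and 1.99-fold higher at P14 than at P6 (log2 change 0.99, SE 0.263, adjusted p = 0.00597, limma).

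C1qa encodes the A chain of C1q, which starts the classical complement pathway. Its probe set was under the array median in every mouse at every age, so its changes are compressed and no fold is given. Its values were 3.09, 3.25, 3.15, 4.14 and 3.10 at P0, 3.27, 3.26, 3.34, 3.56 and 3.68 at P3, 3.58, 3.62, 3.79, 3.86 and 3.79 at P6, and 4.77, 4.87, 4.88 and 4.35 at P14. Means were 3.40 ± 0.23 at P1, 3.37 ± 0.13 at P2 (SD, n = 5 each) and 3.66 ± 0.34 at P4 (SD, n = 4). All P14 mice were above all younger mice. C1qa was higher by 0.99 at P14 than at P6 (SE 0.172, adjusted p = 5.62e-05, limma). The difference of P6 over P0, 0.38 (SE 0.162), did not pass (adjusted p = 0.128, limma), but without the P0 mouse of litter 4, at 4.14, it was 0.58 (adjusted p = 0.00332, limma).

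B2m was bright at every age. Its values were 7.43, 7.99, 8.93, 8.81 and 7.77 at P0, 9.54, 8.85, 9.22, 9.62 and 9.34 at P3, 9.37, 8.76, 9.84, 9.85 and 9.34 at P6, and 9.84, 9.34, 10.28 and 10.15 at P14. Means were 8.63 ± 0.36 at P1, 8.88 ± 0.38 at P2 (SD, n = 5 each) and 9.22 ± 0.30 at P4 (SD, n = 4). The highest P0 mice overlapped the lowest P3 and P6 mice, and P14 overlapped P6. B2m was 2.37-fold higher at P6 than at P0 (log2 change 1.25, SE 0.258, adjusted p = 0.000828, limma). Its difference of P14 over P6 was 0.47 (SE 0.274, adjusted p = 0.259, limma; 95% interval -0.09 to 1.03). With the litter number as a block that difference was 0.55 with an adjusted p of 0.0452, and with array quality weights 0.70 with an adjusted p of 0.0274.

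**Figure D1:**
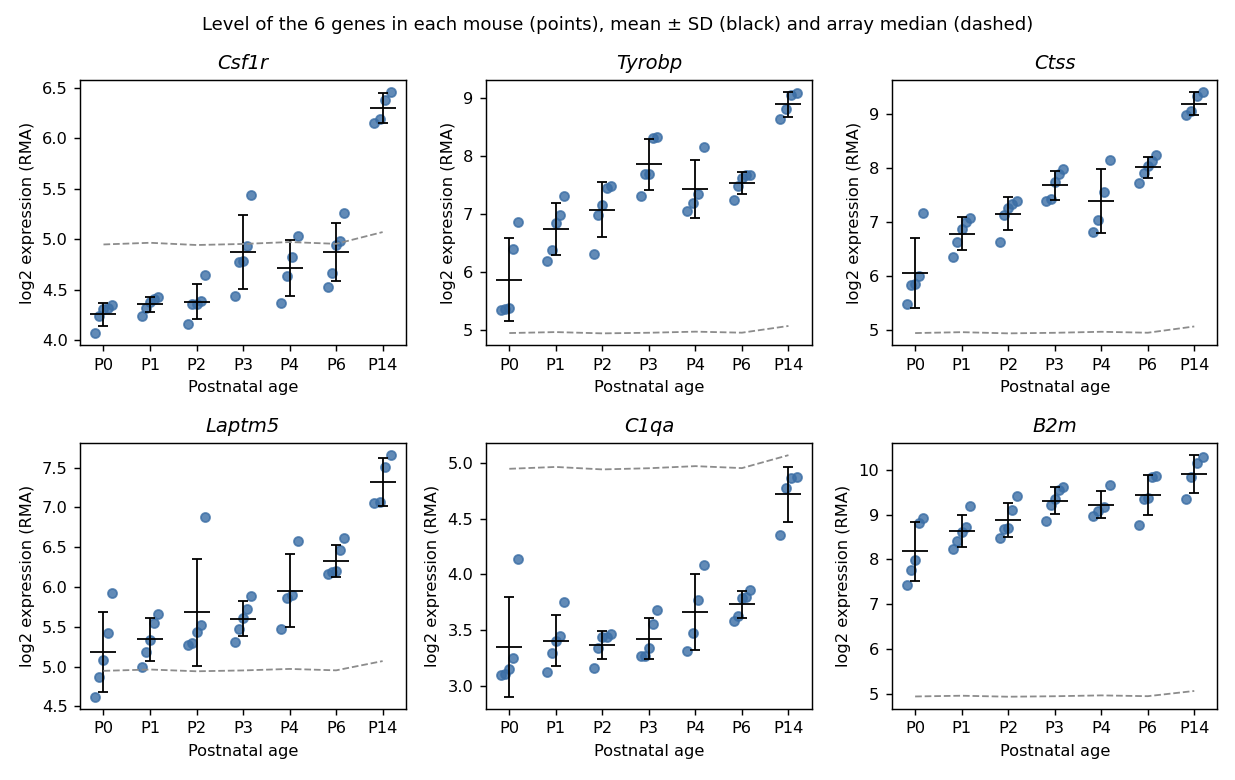
Log2 expression of the 6 genes (one panel each, with its own vertical scale) against postnatal age, the ages drawn at equal steps. Points are mice, black bars the mean ± SD, and the dashed line the array median. P14 mice lie above all younger mice in 5 panels, and the B2m mice of P14 and P6 overlap.

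By count, 5 of 6 genes were higher at P6 than at P0, where 6.42% of all probe sets were called higher, and 4 of 6 did not overlap in any mouse, against 3.99% of all probe sets. At P14 against P6, 5 of 6 were higher, where 15.7% of all probe sets were, and the same 5 did not overlap, against 13.9%. At P14 against P0 all 6 were higher, where 20.7% were, with log2 changes of 2.04 for Csf1r, 3.03 for Tyrobp, 3.13 for Ctss, 2.14 for Laptm5, 1.37 for C1qa and 1.72 for B2m. These 3 comparisons share arrays, so the last is no separate evidence. Because the 6 genes were chosen with earlier results of these data known, the counts are a description and no test of enrichment. As folds, P14 exceeded P0 8.17-fold in Tyrobp, 8.78-fold in Ctss, 4.41-fold in Laptm5 and 3.29-fold in B2m. None of the 6 genes had a P14 mouse within its P0 range, a separation that 15.2% of all probe sets showed with P14 higher.

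The scaling of the arrays moved the background. Of the probe sets called at P14 against P6, 75.4% were higher as deposited, 51.2% after quantile normalization and 57.8% with arrays centred on their medians. At P14 against P0 the shares were 62.9%, 47.1% and 47.0%. The median change of all probe sets at P14 against P6 was -0.06 with centring and 0.05 as deposited. Relative to that scaling, the changes at P14 against P6 were 1.30 for Csf1r, 1.24 for Tyrobp, 1.07 for Ctss, 0.88 for Laptm5, 0.87 for C1qa and 0.35 for B2m, with the same calls.

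Timing within the first week was examined next. None of the 6 genes passed in any step between neighbouring ages (limma, adjusted p under 0.05), where 0.204% of probe sets were called in either direction from P0 to P1, 0.018% from P1 to P2, 0.024% from P2 to P3, 0.012% from P3 to P4 and 0.479% from P4 to P6. At an unadjusted p under 0.05, 2 of the 6 passed from P0 to P1, none from P1 to P2, 3 from P2 to P3, none from P3 to P4 and 1 from P4 to P6. Over all probe sets the shares at that unadjusted threshold were 8.76%, 3.45%, 3.52%, 2.89% and 5.93%, in the same order of steps. The slope per day over the 29 mice from P0 to P6 was positive and called in all 6 genes, where 7.49% of all probe sets were called higher. It was 0.30 log2 per day for Ctss, 0.26 for Tyrobp, 0.20 for B2m, 0.19 for Laptm5, 0.11 for Csf1r and 0.07 for C1qa. The C1qa slope (adjusted p = 0.0391, limma) lost its call in 12 of 31 alternatives, 11 of them with 1 mouse left out, where the adjusted p reached 0.0862 without the P6 mouse of litter 4.

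The first week was also split at P3, a choice made after the data were seen. At P3 against P0, 4 of 6 were higher, where 2.54% of all probe sets were called higher. Tyrobp was higher by 2.00 (SE 0.279, adjusted p = 1.47e-05), Ctss by 1.62 (SE 0.238, adjusted p = 3.07e-05), B2m by 1.13 (SE 0.258, adjusted p = 0.00668) and Csf1r by 0.61 (SE 0.142, adjusted p = 0.00688), all by limma. Laptm5, at 0.42 (adjusted p = 0.419), and C1qa, at 0.07 (adjusted p = 0.896), did not pass in limma.

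At P6 against P3 none of the 6 was called by limma, where 1.0% of all probe sets were called higher. Laptm5 had the smallest p there, with a change of 0.73 (unadjusted p = 0.00651, adjusted p = 0.211) and no overlap between the mice of the 2 ages. Tyrobp stood at -0.33 (SE 0.279). Csf1r had a change of 0.00 with a 95% interval of -0.29 to 0.29. Expressed as a share of the log2 difference between P14 and P0, Tyrobp had reached 65.8% at P3 and 55.1% at P6, and B2m 65.6% and 72.6%. Ctss had reached 51.7% and 62.2%. Csf1r had reached 30.2% at P3 and 30.4% at P6, Laptm5 19.6% and 53.6%, and C1qa 5.37% and 27.8%. Whether these shares differ between genes was not tested.

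**Figure D2:**
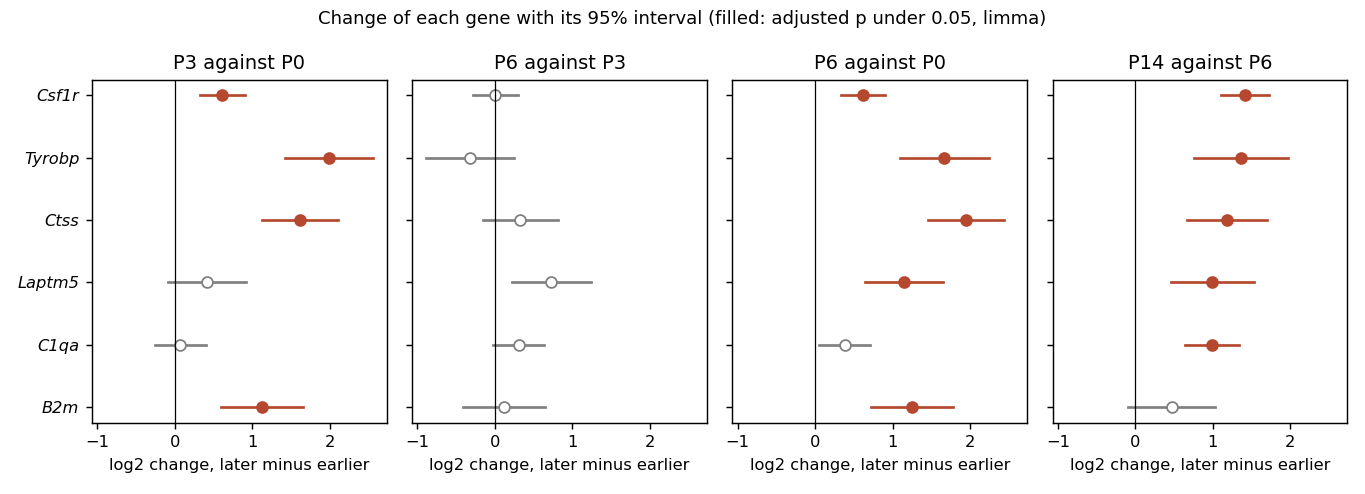
Log2 change of each gene (later minus earlier age, horizontal axis) in 4 comparisons, with its 95% interval from the limma fit. Filled points have an adjusted p under 0.05. Tyrobp, Ctss, B2m and Csf1r are filled at P3 against P0, and no gene is at P6 against P3.

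Mice of the same age differed in these genes, and some of the genes differed together. Each value was taken as the deviation from its age mean over the 33 mice, and 15 pairs were tested by permutation within ages, with adjustment over the 15. Of these, 14 had a positive Pearson r and 3 passed. Pairs of other genes were not tested, so these counts have no background share. Whether they are particular to these genes is not known. Tyrobp and Ctss had r = 0.654 (adjusted p = 0.0127, permutation) and Spearman rho = 0.582 (adjusted p = 0.017, permutation), with r = 0.463 without the 2 mice farthest from the median of Tyrobp. Tyrobp and B2m had r = 0.643 (adjusted p = 0.0127, permutation) and rho = 0.643 (adjusted p = 0.0112, permutation), with r = 0.63 without the 2 farthest mice.

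Csf1r and Laptm5 had r = 0.46 (adjusted p = 0.0167, permutation) and rho = 0.498 (adjusted p = 0.0215, permutation), with r = 0.551 without the 2 farthest mice. Within ages, r was positive at 6 of 7 ages for Tyrobp with Ctss, at 6 of 7 for Tyrobp with B2m and at 7 of 7 for Csf1r with Laptm5. The one negative pair was Csf1r with B2m, at r = -0.178 (adjusted p = 0.509, permutation). With arrays centred on their medians, an alternative chosen after the data were seen, the 3 values were 0.624, 0.623 and 0.371. All pairs share the arrays and their normalization, and the part of RNA quality, of the dissection or of litter in these relations was not tested. The permutation treated mice as independent across ages and left litter number out. By deviations over all probe sets, 18 of 33 arrays were closest to their own litter number at other ages. The permutation p-values may therefore be too small.

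**Figure D3:**
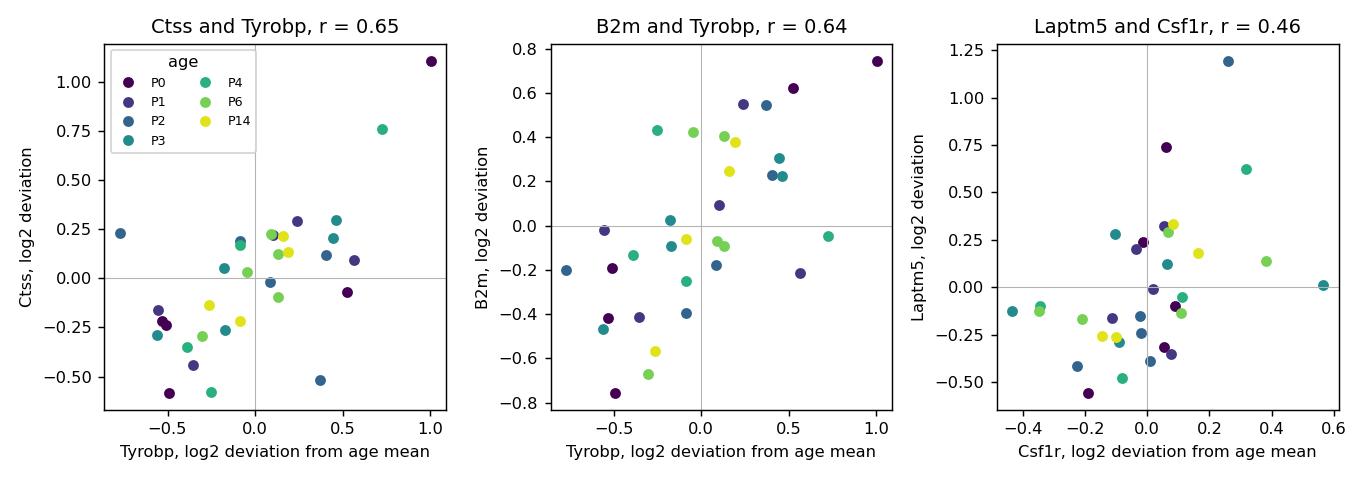
Deviation of each mouse from the mean of its age (log2) for the 3 pairs that passed, with Tyrobp or Csf1r on the horizontal axis and its partner on the vertical axis; colours mark ages. The points run upwards in all 3 panels, and a single P0 mouse is at the upper right for Tyrobp with Ctss.

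The genes whose values over the 33 mice were most like each of the 6 were ranked by Pearson r as a description, with age itself shared by all points. Tyrobp was closest to Ctss (r = 0.92), Hint2 (r = 0.903) and S100a6 (r = 0.898). Csf1r was closest to Plaat3 (r = 0.944), Arhgef10 and Sorl1, Ctss to Efcab14 (r = 0.938), Gng12 and Sparc, and B2m to Acot13 (r = 0.905), Ndufs7 and Rnasek. Laptm5 was closest to Mtfp1 (r = 0.898), Scd1 and Scd2, and C1qa to Ntsr2 (r = 0.898), Rhog and Plekhg3. Over all 6 genes together the highest mean r was that of Cit (0.852), followed by Omg, Fa2h, Aldh1a1 and Gprc5b. Of these lists, Omg and Fa2h are known from oligodendrocytes and myelin. The other like genes were not assigned to cell types, so the ranking points to no cell type.

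Lists of related genes were read against the share of all probe sets called, which was 6.42% higher and 7.95% lower at P6 against P0, 15.7% higher and 5.14% lower at P14 against P6, and 20.7% higher and 12.2% lower at P14 against P0. Of 32 measured genes on a list of microglial and macrophage genes, which holds 4 of the 6, 12 rose and 1 fell at P6 against P0, 20 rose at P14 against P6, and 27 rose and 1 fell at P14 against P0. Their median changes were 0.28, 0.57 and 0.77, against -0.01, 0.05 and 0.03 over all probe sets. Without Csf1r, Tyrobp, Ctss and Laptm5, 28 genes were left, of which 8 (28.6%), 16 (57.1%) and 23 (82.1%) rose, with medians of 0.22, 0.44 and 0.66. Cx3cr1, the fractalkine receptor, rose by 0.87 (adjusted p = 0.000383) and then by 0.99 (adjusted p = 9.37e-05, limma). P2ry12, the purinergic receptor of resting microglia, rose by 0.55 and then by 0.96. Tmem119, a marker of mature microglia, was 3.46 ± 0.14 at P0, 3.56 ± 0.24 at P6 (SD, n = 5 each) and 4.09 ± 0.33 at P14 (SD, n = 4), and rose by 0.52 at P14 against P6 (adjusted p = 0.00221, limma). The gene that fell was Coro1a, an actin regulator also expressed by neurons, which fell by 0.86 at P6 against P0.

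Among 12 measured ligands of CSF1R and myeloid transcription factors, a list that includes Csf1r, 4 rose at P6 against P0, or 2 without the litter 1 mouse of either age, and 1 fell there without the P0 mouse of litter 1 or 5. At P14 against P6, 5 rose and 1 fell, and at P14 against P0, 8 rose and 1 fell. With arrays centred on their medians the last 2 counts of rises were 3 and 5. Among the 11 genes other than Csf1r, 3 (27.3%), 4 (36.4%) and 7 (63.6%) rose. Csf1, one of the ligands, differed by 0.45 at P6 against P0 (adjusted p = 0.0519) and rose by 1.07 at P14 against P6 (adjusted p = 1.35e-05, limma). Sall1, a transcription factor of microglial identity, rose by 0.69 at P14 against P6. Spi1, which encodes PU.1, differed by 0.31 there (adjusted p = 0.0709) and was dim, with a mean of 3.84 at P14.

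Of 18 measured genes that encode partner receptors of TYROBP or their signalling proteins, Tyrobp included, 3 rose at P6 against P0, 6 at P14 against P6 and 12 at P14 against P0, and none fell. Without Tyrobp, 2 (11.8%), 5 (29.4%) and 11 (64.7%) of 17 rose. Among probe sets over the array median at some age, where fewer genes were tested, the counts were 1, 2 and 4. That filter can admit a gene by its P14 level alone, so its counts at P14 are no support for a rise. The list medians were 0.13, 0.23 and 0.44, and most of the partners were dim. Trem2, the best known partner, was 4.50 at P14 and 4.05 at P0, a rise of 0.45 (adjusted p = 0.0048, limma). Itgam and Fcgr1, receptors for complement fragments and for antibodies, rose by 0.62 and 0.64 at P14 against P6. Plcg2, a phospholipase of this signalling, rose by 0.51 at P6 against P0 and stood at -0.09 at P14 against P6.

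Ctss and Laptm5 belong to a list of lysosomal and endosomal genes, of which 19 were measured. At P6 against P0, 10 rose, or 6 without the P0 mouse of litter 5, and 1 fell without the P0 mouse of litter 2 or the P6 mouse of litter 1. At P14 against P6, 15 rose, and at P14 against P0, 16 rose, with none falling in either. Without Ctss and Laptm5, 8 (47.1%), 13 (76.5%) and 14 (82.4%) of 17 rose. The medians of the whole list were 0.64, 0.83 and 1.32, and many of these genes are bright and made by neurons and glia as well. Cst3, the cysteine protease inhibitor cystatin C, rose by 1.09 at P6 against P0 and stood at 0.18 at P14 against P6. The proteases Ctsd and Ctsc rose by 1.42 and 1.59 at P14 against P6, and Npc2, a cholesterol carrier, rose by 1.75.

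The B and C chains of C1q were measured beside C1qa. C1qb was 4.71 ± 0.42 at P0, 4.94 ± 0.26 at P6 (SD, n = 5 each) and 5.60 ± 0.33 at P14 (SD, n = 4). Its change at P14 against P6, 0.66, did not pass (adjusted p = 0.0826, limma), but was 0.80 with the litter number as a block (adjusted p = 0.00228). At P14 against P0 it was 0.89 (adjusted p = 0.0094, limma). That call was lost without the P14 mouse of litter 3, at 0.74 (adjusted p = 0.0526, limma). It was also lost after quantile normalization, at 0.71 (adjusted p = 0.0554, limma). C1qc rose by 0.83 at P14 against P0 (adjusted p = 0.000352, limma). Its change at P14 against P6, 0.50 (adjusted p = 0.0421, limma), lost its call in 9 of 16 alternatives, among them quantile normalization, where it was 0.29 (adjusted p = 0.328), and each of 6 single mice left out, where it was 0.38 to 0.51. Those mice were litters 1, 2 and 5 at P6 and litters 1, 2 and 3 at P14.

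Of 23 measured complement genes, C1qa included, 1 rose and 3 fell at P6 against P0, 7 rose and 1 fell at P14 against P6, and 8 rose and 4 fell at P14 against P0, with medians of 0.08, 0.15 and 0.14. Without C1qa, 1 (4.55%), 6 (27.3%) and 7 (31.8%) of 22 rose and 3 (13.6%), 1 (4.55%) and 4 (18.2%) fell. With only 1 gene risen by P6, against 6.42% of all probe sets, that count is no result about complement genes. The first pair of counts was 2 higher without the litter 4 mouse of P0 or of P6, and 1 lower without the P0 mouse of litter 3. The last count of falls was 2 without the P14 mouse of litter 3. The gene that rose by P6 was Clu, the chaperone clusterin, by 2.13 (adjusted p = 1.4e-11, limma), a gene of astrocytes and neurons rather than of microglia. Masp1, a protease of the lectin pathway, fell by 1.01. Cd93, a C1q-related receptor also found on endothelium, differed by 0.66 at P14 against P6, or by 0.57 (adjusted p = 0.0603) without the P14 mouse of litter 2 and by 0.40 (adjusted p = 0.12) after quantile normalization.

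Of 17 measured genes of MHC class I presentation, B2m included, 2 rose and 1 fell at P6 against P0, 4 rose and 1 fell at P14 against P6, and 8 rose and 1 fell at P14 against P0. Medians were 0.12, 0.18 and 0.21. Without B2m, 1 (6.25%), 4 (25.0%) and 7 (43.8%) of 16 rose and 1 (6.25%) fell in each comparison, so that the shares at P6 were near those of all probe sets. The first count was 1 without the P6 mouse of litter 5, and no gene fell there without the P0 mouse of litter 3 or 4 or the P6 mouse of litter 2 or 5. The fall at P14 against P0 was in 2 genes without the P14 mouse of litter 2. B2m had the highest change of these at P14 against P0 (1.72). Psme1, a proteasome activator subunit, fell by 0.96 at P14 against P6. Psmb8, an immunoproteasome subunit, rose by 0.55, Mr1, which presents vitamin metabolites, by 0.84, and Fcgrt, the neonatal Fc receptor, which pairs with beta-2-microglobulin, by 0.83. Tap1, the peptide transporter, averaged 4.48 at P0, 4.60 by P6 and 4.48 by P14, and passed in none of these 3 comparisons (limma).

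**Figure D4:**
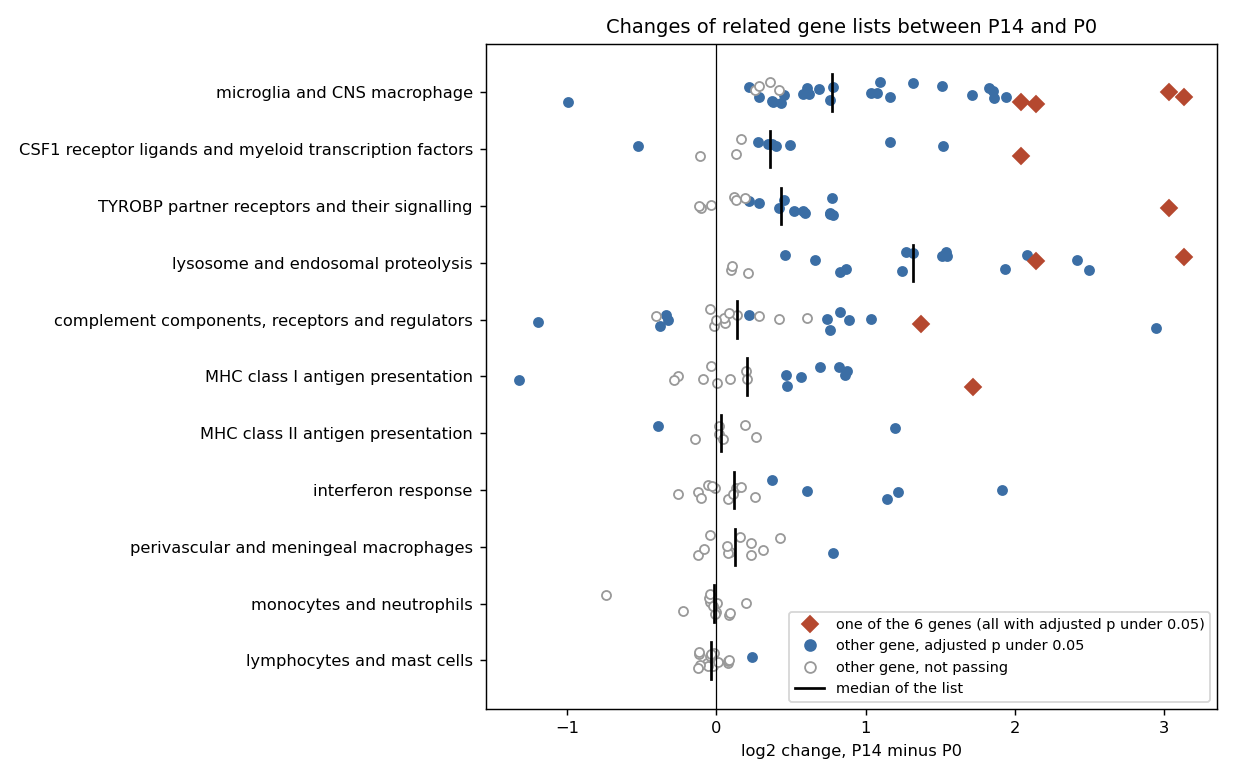
Log2 change between P14 and P0 (horizontal axis) of each measured gene of 11 lists. Diamonds are the 6 genes, filled circles other genes with an adjusted p under 0.05, open circles genes that did not pass, and black bars list medians. The microglia and lysosome lists lie mostly right of 0, and the lists of monocytes, neutrophils, lymphocytes and mast cells lie around 0.

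Markers of other cells moved with age as well. The mean over 13 measured microglial markers, which include 4 of the 6 genes, averaged 4.65 at P0, 5.27 at P6 and 6.04 at P14. Its ranges over mice were 4.50 to 4.90, 5.19 to 5.39 and 5.90 to 6.22. At P14, 6 of the 13 were still under the array median. Perivascular and meningeal macrophages also express genes of the 6, Csf1r and B2m among them. Their 8 markers averaged 4.00 at P0, 4.04 at P6 and 4.20 at P14, with 8, 8 and 7 of the 8 under the array median. Among these markers, Folr2 rose by 0.36 at P6 against P0 (adjusted p = 0.0099, limma). Mrc1 rose by 0.93 (adjusted p = 3.63e-05) and Stab1 by 0.20 (adjusted p = 0.0297, limma) at P14 against P6. On the wider list of 12 measured genes, 1 (8.33%), 2 (16.7%) and 1 (8.33%) rose and none fell. The comparisons were P6 against P0, P14 against P6 and P14 against P0, where 6.42%, 15.7% and 20.7% of all probe sets rose. The first count was 0 with the 2 ages fitted alone. The second was 1 after quantile normalization, with centring, and without litter 1, 2 or 3 at P6 or litter 1, 3 or 5 at P14. The last was 2 with the litter block, with array quality weights, and without litter 4 at P0 or litter 1, 2 or 3 at P14. All 9 markers of monocytes and neutrophils and all 8 of lymphocytes and mast cells were under the array median at every age, and averaged 3.87 and 3.61 at P14, against 3.97 and 3.61 at P0.

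Markers of cells that are not immune moved too. The 5 markers of MNTB principal neurons averaged 6.69 at P0, 8.98 at P6 and 9.30 at P14, the 6 endothelial markers 5.76, 5.78 and 6.62, the 6 astrocyte markers 6.77, 7.27 and 8.39, and the 5 markers of myelinating oligodendrocytes 4.70, 8.48 and 10.57. The 2 measured erythroid markers averaged 5.05, 5.08 and 4.89. The part of these cell types, and of the make-up of the dissected tissue, in the changes of the 6 genes was not tested.

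**Figure D5:**
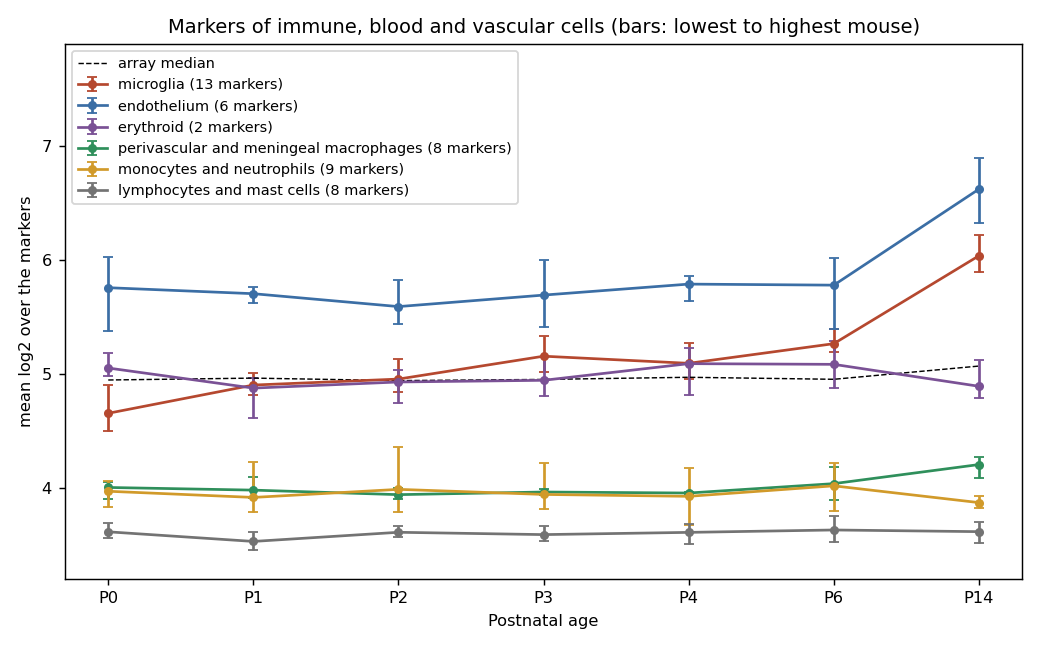
Mean log2 value over the markers of 6 cell types (vertical axis) against postnatal age, with ages at equal steps, bars from the lowest to the highest mouse, and the array median dashed. Microglial markers average 6.04 at P14 and 4.65 at P0, while markers of monocytes, neutrophils, lymphocytes and mast cells stay under the array median.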

How the data were processed

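The authors deposited log2 expression values of 16686 probe sets for 33 arrays. The submitters' processing notes name Partek 6.3, RMA and the build mm9. RNA of needle-dissected tissue with an integrity number of at least 5.0 was amplified with a Pico kit before labelling, per the labels' protocols, which can add spread between arrays. Of the probe sets, 14993 had a single gene symbol, 1019 several and 674 none. For 14939 of those with a single symbol, the symbol was taken by Entrez number from RefSeq's table for GRCm38.p6, whether or not it changed. Coordinates are those of the RefSeq promoter table, not of mm9.

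Limma 3.58.1 (R 4.3.3) was fitted to all 33 arrays with a mean per age, two-sided, with no filter on dim probe sets. The slope used the 29 arrays of P0 to P6. Pairs of genes were tested with 100000 permutations within ages. Labels give litter numbers but do not say that a number is the same litter at different ages, so litter was not in the fit. Nothing in the labels describes extraction or scan batches. The number of arrays per age limits the precision.

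The 6 genes and the gene lists were chosen with earlier results of these data known. Named from the lists were partners, ligands and subunits of the 6 genes, microglial markers, and up to 4 other genes per list with the largest called changes in each main comparison. Likeness was ranked by Pearson r, with 3 genes for each of the 6 and 5 for all together. Alternatives were quantile normalization, centring, a filter on dim probe sets, a trend prior, array quality weights, a fit on 2 ages, the litter block and leaving out each array. H2-K1 and H2-D1 have no probe set with a single symbol and were not analysed here.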

Additional observations from a re-analysis of the deposited data

Results flagged for a closer look

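Among 42 groups of 4 or 5 mice (6 genes at 7 ages), 2 held a mouse far from the others by Dixon's test at the 95% level, and chance flags about 1 in 20 groups. Laptm5 in the P2 mouse of litter 5 was 6.88, while the next value of that age was 5.53. The same mouse had the highest Csf1r of its age, 4.64, and was not the highest for Tyrobp, Ctss, C1qa or B2m. C1qa in the P0 mouse of litter 4 was 4.14, while the next value was 3.25, and C1qa at P6 against P0 passed only without it among the single mice left out. The other mice of these ages were kept and no mouse was removed.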

How the results depend on the processing

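In P6 against P0, P14 against P6 and P14 against P0, the 18 results of the 6 genes kept their direction in all 291 alternatives and their call in 288. The other 3 gained a call and were B2m at P14 against P6 with the litter block or array quality weights, and C1qa at P6 against P0 without 1 mouse. The slopes kept their call in 174 of 186 alternatives, all 12 losses being C1qa, and the 12 results at P3 against P0 and P6 against P3 kept theirs in all 156. Among 237 results of other named genes in the 3 comparisons, 188 of 3805 alternatives lost a call, 41 gained one and none reversed. Complement genes higher at P6 against P0 numbered 1, but 2 after quantile normalization, 3 with array quality weights, and 1 to 2 with a mouse left out. Class I genes numbered 2, but 4 with array quality weights, 1 with the 2 ages fitted alone, and 1 to 3 with a mouse left out. Tested on only probe sets over the array median at some age, fewer genes were left, and those higher at P14 against P6 were 13 microglial, 4 complement and 2 class I genes, and at P14 against P0 16 microglial and 5 complement genes. In that set, ligands of CSF1R and myeloid factors higher at P14 numbered 3 against P6 and 4 against P0. Over all probe sets kept, 2372 were called higher at P14 against P6 and 2952 at P14 against P0. A probe set could enter by its P14 mean alone, so counts of genes higher at P14 there are no support for a rise. Probe sets lower numbered 858 at P14 against P6, but 1740 after quantile normalization and 1441 with centring. At P14 against P0 they numbered 2042, but 3162 and 3112. At P6 against P0 they numbered 1327, but 859 with the 2 ages fitted alone. The causes were not tested.

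Same-numbered litters of different ages had correlations of their deviations between -0.321 and 0.646 (median 0.0619, 94 pairs). Other pairs lay between -0.491 and 0.436 (median -0.0143, 372 pairs). Litter numbers ran from 1 to 5, and 18 of 33 arrays were closest to their own number, where chance would give about 1 in 5. The main fit leaves out any such pairing. With the litter block, Tyrobp changed by 1.67 at P6 against P0 (adjusted p = 7.32e-06, limma) and by 1.45 at P14 against P6 (adjusted p = 7.97e-05, limma). Dimness limits C1qa and Csf1r, whose small changes are compressed.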

Other observations

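Of 8 measured genes of MHC class II presentation, in which cathepsin S acts, 1 rose and 1 fell at P6 against P0 and at P14 against P0, and 1 rose at P14 against P6. A share of 1 in 8 is 12.5%, while 6.42%, 20.7% and 15.7% of all probe sets were called higher in these comparisons, so the counts are no result about class II genes. H2-Ab1, a class II beta chain, rose by 0.61 and then by 0.59 (adjusted p = 5.1e-05 and 8.94e-05, limma), from a dim level, with means of 3.78 at P0, 4.38 at P6 and 4.97 at P14. H2-DMa, a chain of the peptide-loading molecule, fell by 0.43 at P6 against P0. Counts of class II genes at P14 against P0 were 2 higher without the P0 mouse of litter 5, and 1 was lower at P14 against P6 without the P6 mouse of litter 1.

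Of 16 measured genes of the interferon response, 2 (12.5%) rose at P6 against P0, 6 (37.5%) at P14 against P6 and 5 (31.2%) at P14 against P0. The first count was 0 without the litter 1 or 5 mouse of either age or the P0 mouse of litter 4, and 1 without the P0 mouse of litter 3 or the P6 mouse of litter 2 or 3. The second was 3 without the P6 mouse of litter 4 or after quantile normalization. Stat2, a transcription factor of type I interferon signalling, rose by 0.67 at P14 against P6 (adjusted p = 2.81e-06, limma), and Mx2, an antiviral GTPase, by 0.66. Of 12 measured genes of axon-tract microglia of the postnatal brain, 2 (16.7%) rose at P6 against P0, 3 (25.0%) at P14 against P6 and 5 (41.7%) at P14 against P0, where 1 fell, and the medians were 0.03, 0.14 and 0.14. The first count was 1 without any 1 of 8 mice, namely litters 1, 2, 4 and 5 at P0 and litters 1, 2, 3 and 5 at P6. At P14 against P6, 1 fell without the P6 mouse of litter 1 or 2, and at P14 against P0 none fell without the litter 1 or 3 mouse of P0 or the litter 1, 3 or 5 mouse of P14. Apoe rose by 2.09 at P6 against P0 and stood at 0.13 at P14 against P6, and Lpl stood at 0.04 at P6 against P0 and rose by 0.65 at P14 against P6. Apoe is also made by astrocytes.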
